A study of Danio rerio with 6 samples.

Results

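*nampta*, *gpib* and *apip* encode enzymes of NAD synthesis, glycolysis and methionine salvage, and they are 3 of the 223 genes in the deposited table for zebrafish whole eyes at 72 hours post fertilization (hpf). They were chosen by their gene symbols among the rows that the authors had listed as differing between crim1-/- and control eyes, so being listed is the way they were selected and not a finding. The study compared 3 libraries of control eyes, labelled wildtype, with 3 libraries of eyes from in-crossed crim1-/- larvae, labelled a knockdown in the sample titles, which the study describes as carrying a homozygous 2 bp deletion that shifts the reading frame of *crim1*. All 6 libraries were prepared from total RNA of dissected eyes. The crim1-/- line descends from a single founder, while the methods trace control fish to the EKW strain or to NBT:DsRed, a line with neurons labelled through a neural β-tubulin promoter, without saying which gave the sequenced eyes, so genotype and family background cannot be told apart. The series text gives another number of replicates than the sample labels, and the labels were followed.

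NAD carries electrons in energy metabolism and is consumed by sirtuins and other enzymes, so cells keep remaking it. Nicotinamide phosphoribosyltransferase, the product of the NAMPT gene in mammals, makes nicotinamide mononucleotide from nicotinamide and is the rate-limiting enzyme of the salvage route to NAD. Glucose-6-phosphate isomerase interconverts glucose-6-phosphate and fructose-6-phosphate early in glycolysis, the pathway on which the lens and the photoreceptors of vertebrates depend heavily. In mammals, the product of APIP is a dehydratase of the methionine salvage pathway, which rebuilds methionine from the methylthioadenosine left over by polyamine synthesis.

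The study designed and used primer pairs for RT-qPCR of 2 of these genes. The primers are shown as the sequences given for the transcripts that were meant, and they were not aligned to any transcript here. Each is written 5′ to 3′ in lower case, with no part marked.
*gpib* forward primer: taaagtccgcagtggcgagt
*gpib* reverse primer: agcctcggtcaccattagcg
*nampta* forward primer: ggtgcttccgccgtacattc
*nampta* reverse primer: ctccttcatgccctccacga
Each primer is 20 bases long, and the *gpib* forward primer has 11 bases that are G or C while each of the other 3 has 12. No primer pair for *apip* was found in the same list, and no measurement made with these primers is used here.

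Of the deposited values, only 1 per gene is used here, the authors' mean of normalized counts over all libraries of both groups. This mean holds no information on either group alone, on the spread between libraries or on the depth of a library. The table also holds the authors' own comparison of the groups, which was left unused by choice, so the size, direction and error of any difference in *nampta*, *gpib* and *apip* are not given. For the targeted gene *crim1* no value per library was used, and the authors' comparison was left unused too, so the labels were not checked against it.

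*nampta* (ENSDARG00000030598), a gene of the nampt family of NAD salvage, had a mean of 223 normalized counts in the authors' table. In the order of means it was at rank 68 of the 223 genes, with 69.8% of the other listed genes below it. The genes next to it in that order were the clone-named BX511218.1, at 227 normalized counts, and *znf1117*, at 216. The mean of *nampta* lay between the median of the table, 111 normalized counts, and its upper quartile, 258.

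*gpib* (ENSDARG00000103826), a glucose-6-phosphate isomerase gene, had a mean of 176 normalized counts in the authors' table. It was at rank 79, with 64.9% of the other listed genes below it. Its neighbours in the order were *mlec*, at 177 normalized counts, and the clone-named FO907124.1, at 174. Like *nampta*, *gpib* lay between the median and the upper quartile of the listed genes.

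*apip* (ENSDARG00000003132), the gene of the methionine salvage dehydratase, had the highest mean of the 3, 646 normalized counts. It was at rank 26, with 88.7% of the other listed genes below it and above the upper quartile. The gene next above it was the clone-named si:ch1073-340i21.3, at 735 normalized counts, and the gene next below it, also named by a project code, was at 641.

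**Figure D1:**
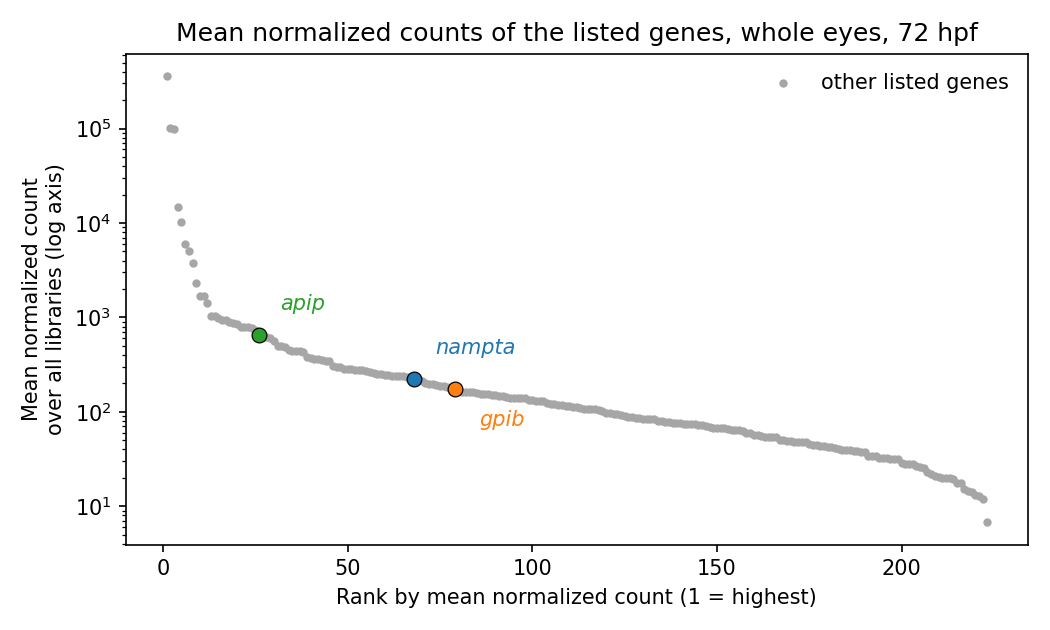
The authors' mean normalized count over all libraries (vertical log axis) is plotted against the rank of each of the 223 listed genes (horizontal axis, 1 is the highest mean). Grey points are the other listed genes and coloured points are *apip* (646), *nampta* (223) and *gpib* (176), which lie above the median of 111; there are no error bars because the table holds 1 mean per gene.

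The plot of means by rank shows that the listed genes ran from 6.76 normalized counts for *or128-1* to 357210 for *crygm2d17*, a lens crystallin gene. The means are normalized for library size and not for transcript length. The order of *apip*, *nampta* and *gpib* is therefore an order of read numbers and not of transcript abundance, and transcript lengths were not used here. Whether neighbours in the order differ cannot be told, because no spread is known.

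Other genes of the same pathways were looked up in the table from 3 lists. Of 38 symbols for NAD synthesis and use, 2 were listed, *nampta* and *pnp5b*, a purine nucleoside phosphorylase gene with a mean of 97.1 normalized counts. Only 35 of these 38 symbols were found as names or synonyms in the RefSeq annotation. Of 35 symbols for glycolysis, 1 was listed, *gpib*. Of 24 symbols for methionine salvage and the methionine cycle, 1 was listed, *apip*. The share of all tested genes that are listed was not calculated here, and each list includes a gene that was itself chosen from the table, so these counts cannot be read as many or few. The table holds only genes past the authors' limits, so a gene that is absent from it is not shown to be unchanged. For the same reason the tissue could not be checked by such a lookup. Of 30 chosen symbols for lens, photoreceptor, pigment epithelium and retinal genes, 0 were listed, while crystallin genes outside those symbols, *crygm2d17* among them, were. Retinal or pigment genes outside those symbols were not searched for and may also be listed. Without the share of all tested genes that are listed, 0 of 30 cannot be read as few either.

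Reads of close gene copies can in general be divided between them when they are counted, so related genes were looked up. The RefSeq annotation of assembly GRCz12tu has 6 entries of the nampt family, 5 of them protein-coding, and the entry that shares the transcript accession given for the *nampta* primers is named nampt1 there. It has 2 glucose-6-phosphate isomerase genes, gpia and *gpib*, and 1 *apip* gene. Whether copies were listed was looked up by symbol and by the gene IDs of a separate reference of gene names. Of its 6 IDs with nampt names 1 was listed, that of *nampta*. Of its 2 isomerase IDs 1 was listed, that of *gpib*. That reference held 0 IDs with the name *apip*, so *apip* was looked up by symbol only. A copy listed under another name would not have been seen. The sequences of these copies were not compared here, so whether reads are shared between them was not tested.

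In the gene order of the same assembly, *nampta* lies between pik3cg and sypl1, *gpib* between si:ch211-79l17.1 and wtip, and *apip* between cd44a and lrrc4cb, counting protein-coding genes only. None of the 3 was on the chromosome of another or on that of *crim1*. The window of 10 protein-coding genes on each side held 0 other listed genes for each of *nampta*, *gpib* and *apip*, and also for *crim1*. How many listed genes such a window holds for genes in general was not calculated, so these counts cannot be read as few. The nearest listed gene was zgc:194209 for *nampta*, 23 genes away, btbd11b for *gpib*, 186 genes away, and cart3 for *apip*, 53 genes away. Only the 143 listed symbols that matched a protein-coding gene of this assembly could be placed, so a nearer listed gene without a match would not have been seen.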

How the data were processed

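RNA of whole eyes at 72 hpf was sequenced as single-end reads from 3 control and 3 crim1-/- libraries. The authors trimmed reads with BBDuk, aligned them to GRCz11 with STAR, made gene counts with RSEM and ran DESeq2 on both groups. Tool versions were not given in the sources used here. For each listed gene the deposited table gives a signal, the mean normalized count over all libraries, which the authors scaled by size factors. Its other 4 columns hold the authors' own comparison (a log2 fold change, its standard error, a p-value, and the p-value after adjustment) and were not used. Values per library were not used here, so no count test was made, and depth and precision were not examined. Genes were ranked by mean and matched to gene lists by symbol. The ranking code was checked on simulated means of known order without noise, which says nothing about the precision of the ranks. The reference table of gene names held 207 of the 223 IDs. The genes described are the 3 enzymes, their family members, the listed gene next above and below each in mean, and listed genes of the lists; the family members beyond gpia and namptb, and the genes next to each in gene order, were added after the files were read. Members and lists were chosen with earlier results of these data known. Gene order came from another assembly, GRCz12tu, so no coordinates are given. Primer sequences were copied from the study's primer list. Ranks were repeated without clone-based names and with a minimum mean of 50 normalized counts. Python 3.11.15, NumPy 2.4.6, pandas 2.3.3 and Matplotlib 3.10.9 were used.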

Additional observations from a re-analysis of the deposited data

How the results depend on the processing

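No paired analysis was possible because the table holds 1 mean over all libraries and no value per library; this also prevented the planned count tests, leaving out single replicates and filtering low counts per library. The values per coding length and the protein identities with paralogs were also not run, because no sequence was used. Leaving out clone-based names shortens the list ranked and placed *apip* at rank 19, *nampta* at 45 and *gpib* at 55 of 119 genes. The rule set for this comparison takes the ratio of rank numbers and not the place within each list. By that rule the rank of *nampta* moved, while those of *apip* and *gpib* counted as the same. Because the lists differ in length, these labels do not show which gene changed place more. The lists hold 223 and 119 genes, so a smaller rank number in the shorter list is not a higher place. With a minimum mean of 50 normalized counts the ranks were 26, 68 and 79 of 166 genes, as in the whole table, since the genes removed all lie lower. Matching also by gene ID and synonyms gave the same number of listed genes for each of the 4 lists looked up.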
